A study of Mus musculus with 6 samples.

Results

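Cajal-Retzius cells and other earliest-born neurons of the embryonic cortex were followed through a set of 10 genes: Reln, Trp73, Lhx1, Lhx5, Lhx9, Calb2, Ebf1, Ebf2, Ebf3 and Ndnf. They were chosen by symbol from known biology, with earlier results of these data known. Where a symbol had several rows, the one with most normalized reads was kept. Of the 10 genes, 8 had a row among the 12041 symbols used, and Ebf1 and Ebf3 are not analysed here. Of these 8, 5 (Lhx1, Lhx5, Lhx9, Calb2 and Ndnf) passed a filter of at least 1 FPKM in at least 3 libraries, which 9359 symbols passed in all. Reln, Trp73 and Ebf2 did not pass it. FPKM is a fragment count divided by transcript length and by a scaling factor of the library. Levels of different genes compare only as far as the length used and the reads counted fit each gene.

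RNA was sequenced from cortex of C57BL/6 mouse embryos of embryonic day 12.5, with 3 wild-type libraries (WT) and 3 from Hdac1&2 conditional knockouts (cKO). Values per library are given in a fixed order, which is HC-1, HC-8, HC-10 for WT and HM-5, HM-13, HM-16 for cKO. Hdac1 and Hdac2 encode histone deacetylases, the catalytic subunits of several corepressor complexes. The sample labels name cortex as the tissue, whereas the design text of the series speaks of the embryonic forebrain. The sources used here give neither the driver of the recombinase nor the deleted exons nor the litters. Nor do the labels say whether each library is a separate embryo, and p-values therefore cover library-to-library spread, which may be technical.

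Cajal-Retzius cells are among the first neurons born in the cortex and settle in the marginal zone beneath the meninges. They arise at the borders of the pallium, among them the cortical hem, the septum and the border between pallium and subpallium, and spread over the cortical surface. They are known for secreting reelin, an extracellular glycoprotein that guides the layering of later-born neurons through the receptors VLDLR and APOER2 and the adaptor DAB1. Their identity is tied to LIM-homeodomain factors, EBF factors and the p53 relative p73.

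Recovered reads (whole reads obtained from the deposited values) totalled 9712556 to 11922665 per library. Mean Hdac1 in the cKO libraries was 25.6% and Hdac2 23.6% of WT, each in its row with most normalized reads. That Hdac2 row ran from 134 to 272 FPKM in WT and from 37.6 to 61.7 FPKM in cKO. Another Hdac2 row had a mean normalized count of 247, against 2750. It was not lower in the authors' deposited table (log2 fold change 0.16, DESeq2 FDR 0.503). The cKO library HM-13 stood apart, where the row Rn45s, a ribosomal RNA precursor, took 29.7% of reads (0.506% to 2.48% in the other 5). The WT library HC-10 stood apart in genes of the cortical hem and the choroid plexus, the border tissue that gives rise to part of the Cajal-Retzius cells. The 13 of 17 such genes with a row summed to 61.3 FPKM in HC-10, against 412 FPKM in HC-1 and 504 FPKM in HC-8. The sums were 307 FPKM in HM-5, 245 FPKM in HM-13 and 306 FPKM in HM-16. The choroid plexus genes Ttr (0.0769 FPKM) and Clic6 (0.0251 FPKM) were close to 0 in HC-10. The WT library HC-1 stood apart in other lists. Its genes of the meninges summed to 503 FPKM, against 231 FPKM in HC-8 and 269 FPKM in HC-10. Its genes of the ventral telencephalon summed to 30.5 FPKM, against 106 FPKM in HC-8 and 83.7 FPKM in HC-10.

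The start sites of 3 of the genes and of the Lhx1 neighbour Lhx1os are shown first. The windows shown differ in their make-up, and Lhx1 and Lhx1os start close to each other. Promoter sequences of RefSeq (GRCm38.p6) were found for 6 of the 10 genes. Each line gives the 250 bases before an annotated start site, 5′ to 3′ on the strand of the gene, with CG dinucleotides, the sites of DNA methylation, in capitals. The first is that of Reln (chr5:22344706-22344955, minus strand), the next that of Lhx1 (chr11:84525535-84525784, minus strand) and the last that of Lhx9 (chr1:138842445-138842694, minus strand).
Reln: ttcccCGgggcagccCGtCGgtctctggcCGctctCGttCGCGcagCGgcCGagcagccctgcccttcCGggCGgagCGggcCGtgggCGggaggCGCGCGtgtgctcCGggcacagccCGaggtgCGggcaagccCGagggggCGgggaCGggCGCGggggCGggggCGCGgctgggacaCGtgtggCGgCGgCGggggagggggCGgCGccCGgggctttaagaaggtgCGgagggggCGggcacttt
Lhx1: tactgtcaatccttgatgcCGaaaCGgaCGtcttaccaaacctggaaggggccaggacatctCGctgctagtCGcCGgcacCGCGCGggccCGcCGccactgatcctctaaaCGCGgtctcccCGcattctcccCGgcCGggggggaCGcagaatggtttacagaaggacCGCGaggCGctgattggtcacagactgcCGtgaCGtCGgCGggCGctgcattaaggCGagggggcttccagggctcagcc
Lhx9: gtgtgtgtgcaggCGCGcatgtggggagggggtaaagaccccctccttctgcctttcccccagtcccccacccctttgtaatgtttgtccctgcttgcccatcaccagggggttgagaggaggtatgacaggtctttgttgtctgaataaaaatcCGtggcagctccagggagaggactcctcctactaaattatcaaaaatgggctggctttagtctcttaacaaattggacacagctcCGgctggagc
The Reln window held 37 CG dinucleotides and the Lhx1 window 26, against a median of 6 over 32851 RefSeq windows of the same length. The Lhx9 window held 4, and it lies before an internal start of the gene, which extends upstream to position 138848577. Of all windows, 97.8% held fewer than Reln and 90.4% fewer than Lhx1, whereas 37.8% held fewer than Lhx9. The GC box (GGGCGG on either strand) was found at 6 positions of the Reln window and in neither of the other windows shown, and 32.7% of all windows held at least 1. The noncoding gene Lhx1os (chromosome 11, 84525660 to 84535831, GRCm38) starts 125 bases from the start of Lhx1 on the opposite strand, inside the Lhx1 window, and the exons of the 2 genes do not overlap. Trp73 has 2 such windows in the same table. The window before the upstream start (chr4:154139876-154140125) held 31 CG dinucleotides, and the one before the internal start (chr4:154097174-154097423), used for the shorter forms of p73, held 6.

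In level, the 8 genes fell into 5 genes of low to moderate abundance and 3 with few reads in their row. In WT, Calb2 was highest with 12.5 ± 1.37 FPKM (SD, n = 3, as for all means here). Lhx5 (8.40 ± 3.28 FPKM) and Lhx9 (7.91 ± 0.91 FPKM) followed and overlapped each other, but neither overlapped Calb2. Lhx1 (4.28 ± 0.87 FPKM) and Ndnf (3.13 ± 1.04 FPKM) came next and also overlapped each other. Trp73 (0.376 ± 0.218 FPKM), Ebf2 (0.156 ± 0.028 FPKM) and Reln (0.152 ± 0.015 FPKM) were lowest, and their ranges overlapped. In cKO the order was the same except that Lhx9 (5.52 to 6.33 FPKM) lay above Lhx5 (5.07 to 5.43 FPKM) without overlap, and Reln lay below Ebf2 without overlap. The length behind the FPKM values matched the transcript named in the row for most of the genes, but it was 4.68 kb against 10.1 kb for Ndnf and 2.75 kb against 3.85 kb for Lhx1, so the levels of these genes relative to others depend on the transcript model used.

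Reln, the gene that defines Cajal-Retzius cells, therefore had few reads in its row in every library. Whether the deposited values hold all reads of Reln could not be checked. Some markers of other lists had low rows too. Of 12 radial glia genes with a row, 9 passed the filter, among them Vim (WT mean 1774 FPKM). Nes (0.507 FPKM) and Slc1a3 (0.830 FPKM) did not. The cause of such low rows was not tested. The set is described here by its genes and not as a measure of Cajal-Retzius cells. The Reln row (ENSMUST00000161356, chromosome 5, 21884454 to 22344702) held 18, 25 and 19 reads in WT, or 0.137, 0.168 and 0.152 FPKM. In cKO it held 9, 12 and 2 reads, or 0.068, 0.119 and 0.0162 FPKM. The groups did not overlap, every cKO library being lower, and the cKO mean was 44.5% of WT. Cortical RNA of this kind cannot separate fewer cells of a type from less RNA per cell. Fitted without the filter, Reln had a log2 fold change of log2(FPKM + 1) of -0.11 (SE 0.07, limma adjusted p = 0.322). The pseudocount of 1 makes this value understate changes at such a level. On reads, limma's voom without the filter gave a log2 fold change of -1.52 (95% confidence interval -2.74 to -0.30, unadjusted p = 0.0199, adjusted p = 0.0900). Adjusted p for Reln ran from 0.0900 to 0.609 over the alternatives, so that no change in Reln was detected at these read counts.

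Trp73, which encodes p73, the p53 family member needed for the survival of Cajal-Retzius cells, was lowest in HC-10 among the WT libraries. It had 0.546 FPKM (31 reads) in HC-1, 0.451 FPKM (29 reads) in HC-8 and 0.130 FPKM (7 reads) in HC-10. The cKO values lay between, with 0.210, 0.253 and 0.301 FPKM. The log2 fold change of log2(FPKM + 1) without the filter was -0.12 (SE 0.12, limma adjusted p = 0.561), and the voom interval on reads ran from -1.57 to 0.82.

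The 3 LIM-homeodomain genes, which encode transcription factors of early neuronal identity, were all lower on average in the cKO libraries, and none was called. Lhx5, expressed by Cajal-Retzius cells and in their sites of origin, had 10.8, 9.72 and 4.67 FPKM across the WT libraries, against 5.07, 5.43 and 5.27 FPKM across the cKO libraries. The cKO values were close to each other and the groups overlapped through HC-10 alone, which was the lowest of all 6. The cKO mean was 62.6% of WT, with a log2 fold change of -0.52 (SE 0.26, limma adjusted p = 0.202). Without HC-10, the library low in hem and choroid genes, the log2 fold change of Lhx5 was -0.85 (SE 0.12) and it passed (limma adjusted p = 0.0103), as did 3.93% of symbols with a lower level. The remaining WT libraries were then above every cKO library in the hem and choroid list too (412 and 504 against 245 to 307 FPKM), so that without HC-10 hem content and genotype cannot be told apart. With the level of that list as a second term and all 6 libraries, an alternative chosen after the values were seen, the log2 fold change of Lhx5 was -0.61 (SE 0.12, limma adjusted p = 0.0207), and 6.88% of symbols passed with a lower level. Adjusted p for Lhx5 over all alternatives ran from 0.0103 to 0.439.

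Lhx1, the closest relative of Lhx5, had 4.36, 5.11 and 3.38 FPKM across the WT libraries, against 2.96, 2.03 and 3.66 FPKM across the cKO libraries. The groups overlapped between HC-10 and HM-16. The cKO mean was 67.2% of WT, with a log2 fold change of -0.45 (SE 0.19, unadjusted p = 0.0479, limma adjusted p = 0.141). Its divergent neighbour Lhx1os, named after its values were seen, had 5.70, 5.78 and 2.26 FPKM across the WT libraries, against 2.55, 3.91 and 4.10 FPKM across the cKO libraries (limma adjusted p = 0.604). Both transcripts of this start region were lowest among WT libraries in HC-10.

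Lhx9, which marks early neurons of the cortical borders and of the diencephalon, was the 1 tested gene of the set whose groups did not overlap. It had 6.88, 8.22 and 8.62 FPKM across the WT libraries, against 6.33, 5.69 and 5.52 FPKM across the cKO libraries. The cKO mean was 73.9% of WT, with a log2 fold change of -0.38 (SE 0.11, unadjusted p = 0.0118, limma adjusted p = 0.0582). It passed without HC-1 (limma adjusted p = 0.0455), where 4.39% of symbols passed with a lower level. The remaining WT libraries then lay below every cKO library in meninges genes (231 and 269 against 272 to 434 FPKM). They lay above every cKO library in ventral genes (106 and 83.7 against 36.4 to 66.8 FPKM). Without HC-1 such content and genotype therefore cannot be told apart. The limma adjusted p of Lhx9 ran up to 0.168 with a library left out, and to 0.376 with library totals (1 common spread). HC-10 was the highest library for Lhx9 and the lowest for Lhx5, so these LIM genes did not follow each other among WT libraries. A second row of Lhx9 (ENSMUST00000093486), which starts further upstream, held 5 to 16 reads per library. Of 15 marker genes of thalamic eminence, diencephalon and midbrain, 3 had a row and 1 was tested. That gene, Barhl2, a homeobox gene of these regions, had 4.61, 9.56 and 11.9 FPKM across the WT libraries, against 2.18, 7.17 and 1.72 FPKM across the cKO libraries (limma adjusted p = 0.122; unadjusted p = 0.0380), and it passed without HM-13 (adjusted p = 0.0213). The summed level of these markers was 5.96 to 12.4 FPKM in WT and 2.90 to 8.06 FPKM in cKO, and its part in the Lhx9 values was not tested.

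Calb2, which encodes the calcium buffer calretinin found in Cajal-Retzius cells and in many interneurons, had the smallest log2 fold change of the 5 tested genes. It had 14.0, 11.5 and 11.9 FPKM across the WT libraries, against 10.6, 12.5 and 10.1 FPKM across the cKO libraries. The groups overlapped, and the log2 fold change was -0.16 (SE 0.11, limma adjusted p = 0.370) with a 95% confidence interval of -0.42 to 0.11. Ndnf, which encodes a secreted neuron-derived factor and marks neurons of the marginal zone, had 2.09, 4.17 and 3.13 FPKM across the WT libraries, against 2.13, 1.93 and 1.58 FPKM across the cKO libraries. HC-1 lay among the cKO libraries, and the other WT libraries lay above them. The cKO mean of Ndnf was 60.2% of WT, with a log2 fold change of -0.49 (SE 0.19, unadjusted p = 0.0372, limma adjusted p = 0.120). Without HC-1, where meninges and ventral content cannot be told apart from genotype, it was -0.69 and passed (limma adjusted p = 0.0415). Over all alternatives the adjusted p of Ndnf ran from 0.0415 to 0.289.

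Ebf2, an EBF-family factor of Cajal-Retzius cells and other early neurons, was the 1 gene of the 8 with a higher mean in the cKO libraries. It had 10, 8 and 9 reads in WT (0.176, 0.124 and 0.167 FPKM) and 14, 13 and 8 reads in cKO (0.245, 0.299 and 0.150 FPKM). HM-16 lay inside the WT range. The log2 fold change of log2(FPKM + 1) without the filter was 0.09 (SE 0.08, limma adjusted p = 0.477), and the voom interval on reads ran from -0.41 to 1.42. The 8 genes lie, in GRCm38, at the positions given here for Reln and, for the others, at chromosome 4, 154056253 to 154140208 (Trp73), chromosome 11, 84518284 to 84525535 (Lhx1), chromosome 5, 120431699 to 120441223 (Lhx5), chromosome 1, 138825186 to 138848577 (Lhx9), chromosome 8, 110137502 to 110168210 (Calb2), chromosome 14, 67233292 to 67430918 (Ebf2) and chromosome 6, 65671590 to 65712326 (Ndnf). Exons of Reln, Trp73, Lhx5 and Ebf2 each overlap 1 gene annotated on the opposite strand. The strandedness of the counting is not given in the sources used here, so reads of these partners cannot be told apart.

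**Figure D1:**
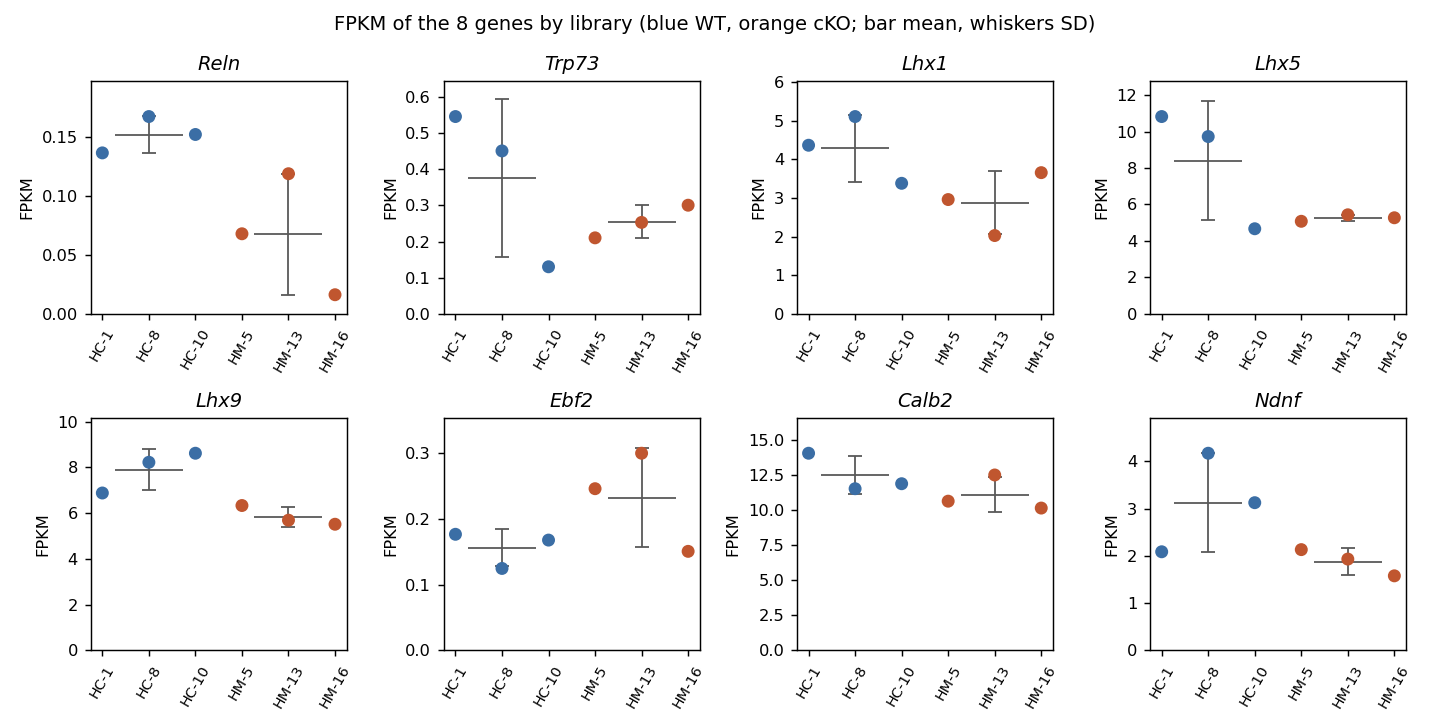
FPKM (vertical axis, linear from 0, a separate scale per gene) in each of the 3 WT (blue) and 3 cKO (orange) libraries, with the group mean (bar) and SD (whiskers). The groups are separate for Reln (0.137 to 0.168 against 0.0162 to 0.119 FPKM) and Lhx9, and HC-10 lies below the other WT libraries for Trp73, Lhx1 and Lhx5.

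Of the 5 tested genes, 0 passed limma's test at an adjusted p of 0.05. Among all 9359 tested symbols 18% passed, 8.39% with a lower and 9.62% with a higher level in cKO. An unadjusted p under 0.05 was reached by 3 of the 5 (Lhx1, Lhx9 and Ndnf), all lower, against 34.3% of tested symbols in either direction and 16.9% with a lower level. With voom 0 of the 5 passed, where 9.26% of symbols passed with a lower level. All 5 log2 fold changes lay below 0, as did 51.2% of those of all tested symbols, and their median was -0.45 against -0.01 over all tested symbols. Groups that did not overlap, with cKO lower, were seen for 1 of the 5 tested genes and 19.6% of tested symbols (39.1% in either direction), and for 2 of the 8 genes with a row and 17% of all symbols. In the authors' deposited table, which has an FDR for 5 of the 8 genes, 2 had an FDR under 0.05. These were Ndnf (log2 fold change -0.60, FDR 0.0198) and Lhx5 (log2 fold change -0.57, FDR 0.0260). In the authors' deposited table the rate over all rows with an FDR was 19.3% (8.75% lower in cKO), and Lhx9 (FDR 0.0865), Lhx1 (FDR 0.0948) and Calb2 (FDR 0.564) did not pass there.

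**Figure D2:**
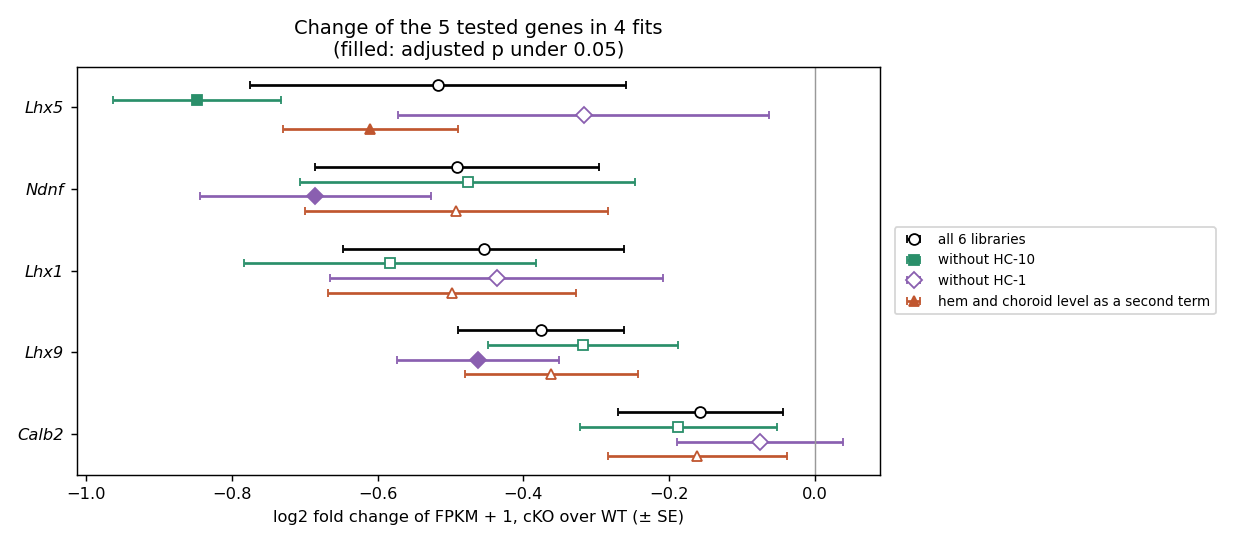
Log2 fold change of FPKM + 1 (horizontal axis, cKO over WT, whiskers SE) of the 5 tested genes in 4 fits; filled symbols have a limma adjusted p under 0.05. All values lie below 0, Lhx5 is filled without HC-10 and with the hem and choroid level as a second term, and Ndnf and Lhx9 are filled without HC-1.

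Among libraries of 1 group, the genes did not vary as a block. HC-10 lay below the WT mean by 0.66 for Lhx5, by 0.26 for Lhx1 and by 0.27 for Trp73 on the log2(FPKM + 1) scale, whereas Lhx9 lay 0.12 above it and Ndnf 0.03 above it. HC-1 was the lowest WT library for Ndnf (0.39 below the mean) and Lhx9 (0.17 below) and the highest for Lhx5 (0.40 above) and Calb2 (0.16 above). The cKO libraries were closer to each other for Lhx5 (deviations of -0.04 to 0.04) than for Lhx1, where HM-13 lay 0.34 below and HM-16 0.29 above their mean. HM-13, with its many Rn45s reads, was the lowest cKO library for Lhx1 and the highest for Calb2, Lhx5, Reln and Ebf2. General neuronal genes, 13 of 16 with a row, summed to 1284 to 1737 FPKM in WT and to 993 to 1437 FPKM in cKO, with HC-10 and HM-13 highest in their groups. HC-10 was thus high in general neuronal genes and low in Lhx5, Trp73 and the hem list. The part of tissue content in these differences was not tested, since the fit with the hem list as a term leans mostly on HC-10.

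**Figure D3:**
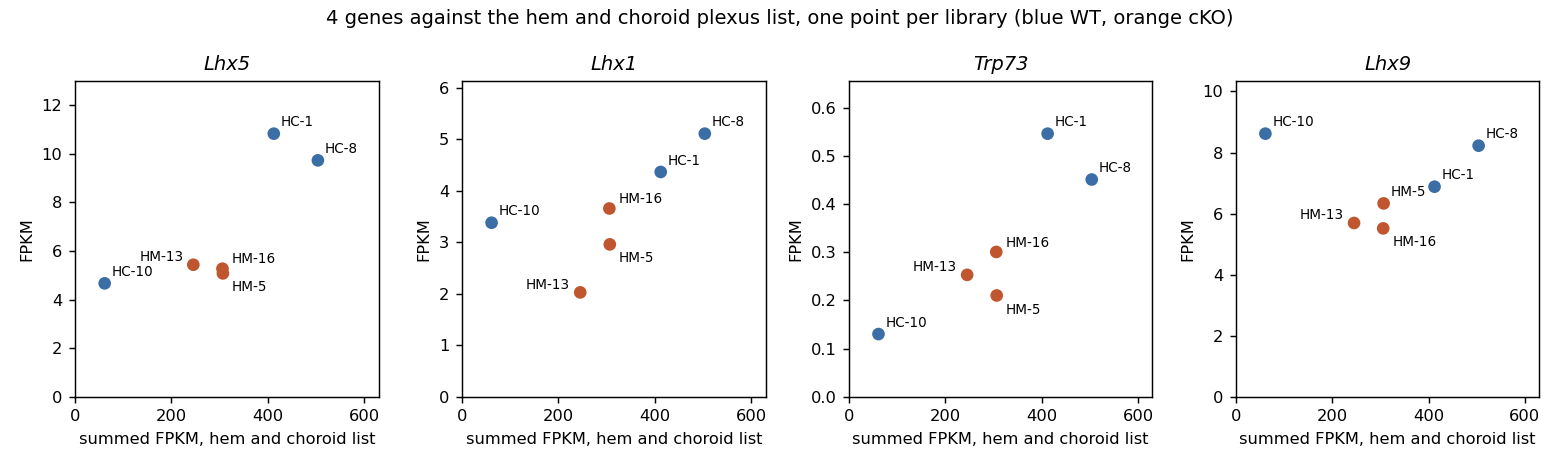
FPKM of Lhx5, Lhx1, Trp73 and Lhx9 (vertical axes) against the summed FPKM of the hem and choroid plexus list (horizontal axis), 1 labelled point per library (blue WT, orange cKO). HC-10, at 61.3 FPKM of the list, is the lowest WT library for Lhx5, Lhx1 and Trp73 and the highest library for Lhx9.

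The tested genes most like each of the 5, by the root mean square difference of log2(FPKM + 1) centred over the 6 libraries, were the following. For Lhx1 they were Scd1 (0.063), Tmem183a (0.087) and Pcsk1n (0.105). For Lhx5 they were Bcam (0.123), Aunip (0.141) and Clu (0.159), all lower in HC-10 than in the other WT libraries. For Lhx9 they were Gjc1 (0.056), Car4 (0.060) and Pyroxd1 (0.061), and for Calb2 they were Tmem128 (0.044), Nfyb (0.045) and Acad8 (0.048). For Ndnf they were Msantd3 (0.114), Nt5c3b (0.123) and Angel2 (0.124). Of these 15 genes, 1 passed limma's test, Msantd3 (log2 fold change -0.59, adjusted p = 0.0264), against 18% of all tested symbols. They were picked for likeness to genes that did not pass, so few calls among them follow from the choice.

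Among other genes known from Cajal-Retzius cells, 6 of 9 had a row and 4 were tested. None passed with limma or voom, and the median log2 fold change was -0.37. An unadjusted p under 0.05 was reached by 2 of these 4, against 34.3% of all tested symbols. The bHLH factor Nhlh1 had a WT mean of 60.5 ± 11.8 FPKM and a cKO mean of 45.7 ± 4.57 FPKM (limma adjusted p = 0.102), and the T-box factor Tbr1, shared with early projection neurons, had 104 ± 9.43 and 82.2 ± 17.5 FPKM (limma adjusted p = 0.130). Each passed in 1 of the 6 fits with a library left out, Nhlh1 without HC-8 (limma adjusted p = 0.0240) and Tbr1 without HM-13 (limma adjusted p = 0.0120). Eomes, the T-box factor of intermediate progenitors and of some Cajal-Retzius cells, had 2.01 ± 0.31 and 2.37 ± 0.86 FPKM. The zinc finger gene Zic1, expressed in the septum and hem, had 13.8, 18.4 and 10.4 FPKM across the WT libraries, against 11.5, 6.03 and 9.99 FPKM across the cKO libraries, where HC-10 again was the lowest WT library.

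Of the regulators that set how many Cajal-Retzius cells are made, those that passed the test were all higher in cKO. Of 18, 15 were tested, 3 rose and 0 fell with limma (4 and 0 with voom), against 9.62% and 8.39% of all tested symbols with limma. An unadjusted p under 0.05 was reached by 8, against 34.3% of all tested symbols. Among these 8, Neurog1 was lower in cKO (72.7% of WT, limma adjusted p = 0.0878). The 15 had a median log2 fold change of 0.27, and 5 of them lay below 0. Dmrta1, a doublesex-related factor of the pallial progenitors, had 41.2, 44.3 and 41.1 FPKM across the WT libraries, against 76.9, 63.3 and 71.9 FPKM across the cKO libraries. It rose 1.68-fold without overlap (log2 fold change 0.73, SE 0.08, limma adjusted p = 0.00272) and passed with each library left out (highest adjusted p = 0.0203). Emx2, a homeobox factor of the medial pallium, rose 1.52-fold (limma adjusted p = 0.0360) and kept this only in the fit without HM-13 among those with a library left out (highest adjusted p = 0.129). With library totals as scaling, Dmrta1 (log2 fold change 0.63, limma adjusted p = 0.0937) and Emx2 (0.49, limma adjusted p = 0.211) kept their sign and did not pass. That fit gave genes of like level 1 common spread, so its p-values are not comparable with those of the other fits.

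Genes that receive and pass on the reelin signal gave no call with limma and all 6 libraries. Of 28, 20 had a row and 16 were tested. With limma 0 rose and 0 fell, and the median log2 fold change was -0.04. An unadjusted p under 0.05 was reached by 4 of the 16, against 34.3% of all tested symbols. With voom 1 fell, Cfl1 (adjusted p = 0.0239), which encodes the actin-severing protein cofilin and had 2262 ± 155 FPKM in the WT and 1838 ± 143 FPKM in the cKO libraries (limma adjusted p = 0.0618). Dab1, the adaptor of the reelin receptors, had 0.862, 1.33 and 1.06 FPKM across the WT libraries, against 1.93, 1.31 and 1.99 FPKM across the cKO libraries (limma adjusted p = 0.106). The receptor gene Lrp8 (APOER2) did not pass the filter, with 0.289 to 1.79 FPKM, and Vldlr is not analysed here.

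Among cofactors of LIM-homeodomain proteins and LIM-only genes, 5 of 10 were tested. Against 9.62% of all tested symbols, 1 of the 5 rose. This was Lmo3, a LIM-only gene, with 1.86, 1.54 and 4.06 FPKM across WT, against 6.21, 5.91 and 6.21 FPKM across cKO. It rose 2.45-fold without overlap (log2 fold change 1.09, SE 0.24, limma adjusted p = 0.0219), but leaving out HC-1, HC-8, HM-5 or HM-16 ended the call (adjusted p up to 0.0821). HC-10, low in Lhx5, was the highest WT library for Lmo3. The EBF partner Zfp423 (3.26 ± 0.76 and 3.01 ± 0.17 FPKM), the p53 family gene Trp53 (2.15 ± 0.29 and 2.56 ± 0.82 FPKM) and the chemokine gene Cxcl12 (12.9 to 29.4 FPKM in WT and 13.0 to 17.5 FPKM in cKO), whose product is made by the meninges and guides Cajal-Retzius cells, were each the only tested gene of their list. None of the 3 passed with limma or voom or had an unadjusted p under 0.05.

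Other early-born and general neuronal genes went both ways. Of 12 subplate and deep-layer genes, 5 were tested, with a median log2 fold change of -0.10. Against 8.39% of all tested symbols, 1 of the 5 fell, the neurexophilin gene Nxph4 (50.2 ± 7.04 to 21.2 ± 3.37 FPKM, limma adjusted p = 0.00272). Of 16 general neuronal genes, 12 were tested. With limma 2 rose and 0 fell (2 and 2 with voom), against 9.62% and 8.39% of all tested symbols with limma. Those that rose were the neurofilament genes Nefl (1.67-fold, adjusted p = 0.0206), whose call ended without HM-5, without HM-16 and with library totals (adjusted p = 0.161), and Nefm (1.61-fold, adjusted p = 0.0441), whose call held without HM-13 and ended without any other single library. The call of Nefm also ended with library totals (adjusted p = 0.242), quantile normalization (adjusted p = 0.0711) and the hem term (adjusted p = 0.0577). The p-values with library totals rest on 1 common spread for genes of like level and are not comparable with the others. The 12 general neuronal genes had a median log2 fold change of -0.25, and 10 of the 12 lay below 0. An unadjusted p under 0.05 was seen for 34.3% of all tested symbols and, with limma, for 6 of these 12. Besides Nefl and Nefm these were Stmn2 (66.0% of WT), Gap43 (64.7%), Ina (67.1%) and Slc17a6 (73.5%), all lower in cKO and none called.

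Markers of other cells gave few calls, apart from those of radial glia. With limma and with voom, 0 genes passed among 12 tested of hem and choroid plexus, 1 of the diencephalon, 5 of the ventral telencephalon, 4 of endothelium and pericytes, 10 of meninges and 7 of erythroid cells. An unadjusted p under 0.05 was seen for 1 of them, Barhl2. Of 2 tested genes of olfactory and GnRH neurons, the G protein subunit gene Gng8 rose 2.18-fold (limma adjusted p = 0.00484). Of 9 tested radial glia genes, 2 rose (Sox3, 1.59-fold, and Emx2) and 2 fell (Fabp7 to 37.8% and Id4 to 71.9% of WT). Over all tested symbols 9.62% rose and 8.39% fell. An unadjusted p under 0.05 was reached by 8 of the 9, against 34.3% of all tested symbols. The calls of Sox3 and Id4 ended without HM-5, without HM-16 and with library totals (limma adjusted p = 0.123 and 0.0970). The 5 tested ventral genes had a median log2 fold change of -0.80, lower than that of the 5 tested genes of the set, and their list summed to 30.5 to 106 FPKM in WT and 36.4 to 66.8 FPKM in cKO. The homeobox gene Dlx2 was at 38.4% of WT (limma adjusted p = 0.402) and the zinc finger gene Sp9 at 39.7% (limma adjusted p = 0.443). With library totals as scaling, limma estimated 1 common spread for genes of like level (infinite prior degrees of freedom, against 3.56 otherwise), so a gene's own spread did not enter. Dlx2 (adjusted p = 3.9e-05, with an SE of 0.25 against 1.23 from its own libraries), Sp9 (adjusted p = 0.000337) and Barhl2 (adjusted p = 5.5e-05) passed there although their groups overlapped.

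**Figure D4:**
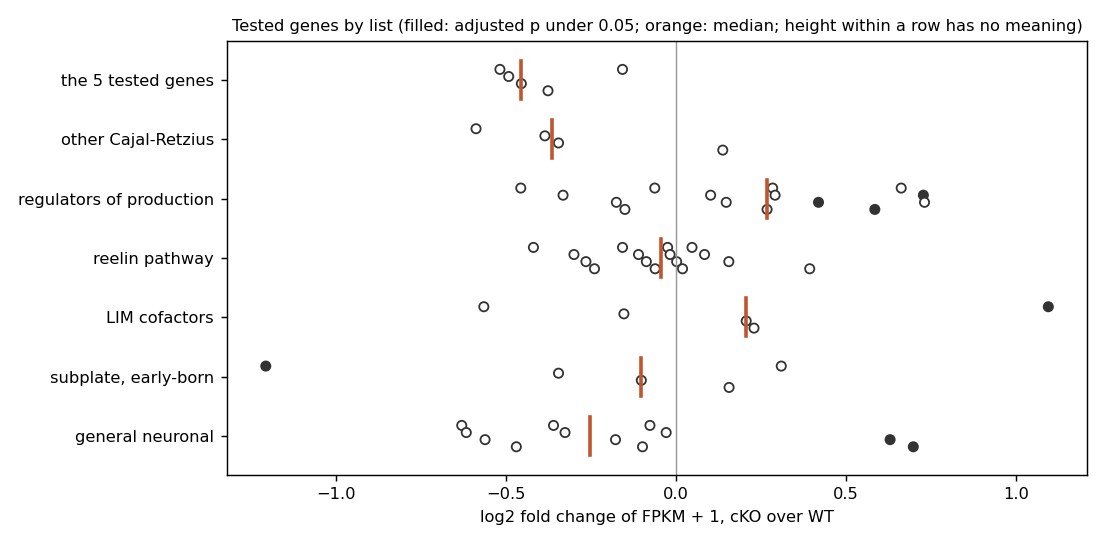
Log2 fold change of FPKM + 1 (horizontal axis, cKO over WT) of each tested gene (circles, filled where the limma adjusted p is under 0.05) in 7 gene lists, with the median of each list (orange bar). The 5 tested genes have a median of -0.45, other Cajal-Retzius genes one of -0.37, and the medians of the regulators of production (0.27) and of the LIM cofactors (0.21) lie above 0.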

How the data were processed

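Per the submitters' processing notes, the authors used DESeq2 (1.22.1), STAR (2.5.4b), R (3.4.1), bcl2fastq (1.8.4) and featureCounts (1.6.1), and build mm10, in no stated order. The authors deposited 1 table of 14379 rows. Per the file headers it holds FPKM for 6 libraries, and the authors' mean normalized count (a signal over all libraries), log2 fold change, p-value and FDR. Column names carry HC and HM, read as WT and cKO from the letters, and no replicate numbers.

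FPKM times mean normalized count over mean FPKM, divided by a step fitted per library, gave whole reads for 100% of values (within 0.001). The size factors in the values ran from 0.804 to 1.19. limma 3.58.1 in R 4.3.3 was fitted with an intensity trend on log2(FPKM + 1) of all 9359 symbols that passed the filter, with Benjamini-Hochberg adjustment and a threshold of 0.05. "Rose" and "fell" are used for genes past it. The fit was tested on simulated data with a spread common to all genes, no outlying library and changes larger than those of the genes here. It therefore does not cover changes of their size. Gene positions are those of GENCODE M21 (GRCm38). The pseudocount makes log2 fold changes understate changes of low genes.

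The genes and the 17 other lists were chosen with earlier results of these data known. The rule for names took the 10 genes, from each list up to 3 genes with the smallest p among those that passed or up to 2 where none did, and for each tested gene the 3 most like it. The values of 1 list gene are not reported here. Other list genes, Lhx1os and the fit with the hem list were chosen after values were seen. Alternatives were other pseudocounts (0.1 and 5), filters, scalings, voom, summed rows, a term for Xist-high libraries and leaving out each library.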

Additional observations from a re-analysis of the deposited data

How the results depend on the processing

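No direction of the 8 genes changed under any alternative run. The number of genes of the set past the threshold was 0 with all libraries and 0 to 2 with a library left out: it was 2 without HC-1 (Ndnf and Lhx9) and 1 without HC-10 (Lhx5). It was 1 with the hem and choroid level as a second term (Lhx5), and 0 in the other settings. Log2 fold changes ran from -0.85 to -0.32 for Lhx5, -0.70 to -0.23 for Ndnf, -0.60 to -0.24 for Lhx1, -0.46 to -0.25 for Lhx9 and -0.25 to -0.08 for Calb2.

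Over all genes the count was 1685. It ran from 511 (without HM-5) to 1773 (without HM-13) with a library left out, with 545 without HM-16, 888 without HC-10 and 1103 without HC-1, and it was 498 with library totals, which moved the median log2 fold change by -0.09 and in which limma gave genes of like level 1 common spread, so that single-gene p-values of that fit are not comparable with the others. Rises were 53.4% of calls and 60.4% with library totals. In the 7 lists of Cajal-Retzius and reelin biology 4 genes passed, 1 with library totals, and 1 (without HM-5 or HM-16) to 9 (without HM-13) with a library left out. The cause was not tested. No paired analysis was possible because the columns carry no replicate numbers, and the fit with a replicate block was not run. Reln, Trp73 and Ebf2 rest on 2 to 31 reads per library, which limits what can be seen of them.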
